A study of Mus musculus with 43 samples.

Results

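Of the 10640 sgRNAs of the metabolic CRISPR library, 175 targeted 35 genes of mitochondrial and peroxisomal fatty acid oxidation, with 5 sgRNAs per gene. The genes were chosen by symbol alone, from the acyl-CoA dehydrogenases to phytanoyl-CoA hydroxylase, among 2078 library genes, and 250 further sgRNAs were nontargeting. The sgRNAs were carried by CD90.1+ OT-I T cells, CD8+ T cells with a receptor for ovalbumin and a Cas9 knockin, which were given by tail vein to recipient Rosa26-Cas9 mice bearing orthotopic KPC_OVA tumours, a mouse pancreatic ductal adenocarcinoma line expressing ovalbumin. An aliquot of the day of transfer served as T0 (3 libraries). OT-I T cells were sorted 7 days later from primary tumour, lung, liver, peritoneal metastases, spleen, draining lymph nodes and nondraining lymph nodes of mice treated with anti-PD-1 or IgG, so that T0 and all groups share the library, the transduction and the CD90.1 selection. Values existed for 41 of 43 samples. Each of the 14 groups had 3 libraries except peritoneal IgG and liver IgG with 2 and liver anti-PD-1 with 1, and the labels call the libraries biological replicates without stating how many mice stand behind each.

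Long-chain fatty acids enter mitochondria as carnitine esters, and each turn of beta-oxidation then runs through an acyl-CoA dehydrogenase, a hydratase, a hydroxyacyl-CoA dehydrogenase and a thiolase. The electrons taken up by the dehydrogenases pass through electron transfer flavoprotein and its dehydrogenase to the respiratory chain. Peroxisomes shorten very long and branched chains with their own oxidases, bifunctional enzymes and thiolases. In CD8+ T cells the pathway is best known from memory cells, whereas newly activated effector cells rely more on glucose. A knockout that costs T cells growth, survival or access to an organ lowers the share of its sgRNAs there against T0.

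The table of values names each sgRNA by an identifier (s_00761 to s_00765 for Cpt1a, for example) and holds no spacer sequences. Phyh was the only one of the 35 genes with sgRNA sequences in the study's supplement, where it belongs to the smaller single-cell library. Those 3 sgRNAs were not measured here and are shown because Phyh is the gene the study carried forward. The PAM read next to each spacer in GRCm38 is in capitals.
Phyh_gRNA1: ctcattataacgatccctggTGG
Phyh_gRNA2: cccaaaggatacaatcgttgGGG
Phyh_gRNA3: aaacaattaggttgctaggtCGG
All 3 spacers of 20 bases match the minus strand of chromosome 2 inside Phyh (ENSMUSG00000026664, chromosome 2, 4919019 to 4938730, plus strand, GENCODE vM21). Phyh_gRNA2 lies at 4919137 to 4919156 with its cut in coding exon 1 of Phyh-201, Phyh_gRNA1 at 4927390 to 4927409 with its cut in coding exon 4, and Phyh_gRNA3 at 4930768 to 4930787 with its cut in coding exon 6.

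Levels below are the mean over a gene's 5 sgRNAs of log2(signal + 1), centred on the mean of the nontargeting sgRNAs of the same library, and a change is the difference of 2 such levels. In T0 the 175 sgRNAs had a median signal of 315 (136 to 2812). An sgRNA counts as at its lowest value where libraries of the same replicate number share that minimum. No T0 library had any of the 175 sgRNAs there. Among libraries sorted from mice the proportion was 0 to 17.1% in tumour, liver, peritoneal metastases and spleen (2.78 to 24.1% for all sgRNAs), whereas lung had 2.86 to 31.4% (10.5 to 42.6%) and lymph nodes had 40.6 to 92.0% (45.4 to 91.6%). In the lung libraries numbered 3 the proportion was 5.71% under IgG and 2.86% under anti-PD-1. In lung replicates 1 and 2 it was 31.4% and 16.6% under IgG and 9.71% and 24.6% under anti-PD-1. In lymph nodes the proportion was 40.6 to 61.7% in the libraries numbered 3 and 72.6 to 92.0% in those numbered 1 or 2. Nontargeting sgRNAs of a single library had a log2 SD of 1.08 to 1.11 in T0. This SD reached 1.43 to 3.11 in tumour, liver, peritoneal metastases and spleen, 2.62 to 3.68 for lung and 2.04 to 4.35 for lymph nodes. Lymph nodes were fitted apart from the other organs. Peritoneal anti-PD-1 replicate 2 is called peritoneal by its title and spleen by its tissue label, and results that rest on it are given with and without it. All changes against T0 share the same 3 T0 libraries.

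Of the 35 fatty acid oxidation genes, only Acad9 and Eci2 were called against T0 in any group outside the lymph nodes in the fit used here, and both calls depend on single libraries and on settings given with each. Over the 10 groups of those 5 organs, 3 of 350 gene and group pairs were lower than T0 at an adjusted p of at most 0.05 and none was higher. That is 0.857% of pairs lower, whereas 14.1% of the pairs of all library genes were lower and 0.419% higher. At an unadjusted p under 0.05, 11 pairs were lower and 5 higher. At that p 279 to 448 of all 2078 genes were lower in a group and 3 to 115 higher. The 3 pairs were Acad9 in lung and in peritoneal metastases and Eci2 in liver, all under anti-PD-1, where 17.2%, 15.3% and 9.58% of all genes were lower. In the other 7 groups no gene of the pathway was called lower and 13.1 to 16.2% of all genes were. Among all genes 0.0 to 1.68% were higher in a group, from 0.0481% in peritoneal IgG and 0.0% in tumour IgG to 0.962% and 1.68% in lung. In the mean of the 10 groups against T0, Acad9 alone was lower and no gene of the pathway was higher, against 16.1% and 0.192% of all genes. The median mean change of the 35 genes was -0.11 with an SD between genes of 0.44, and that of all 2078 genes was -0.14 with an SD of 1.48. The mean change was below 0 for 22 genes and above 0 for 13. Signs near 0 depend on the centring. With the nontargeting median every gene's mean change moved by -0.41, which left 34 genes below 0, and with values as deposited it moved by -0.998, which left all 35 below 0. The lower pairs then numbered 15 and 53, and the share of all genes called under these centrings is not given here. With the median of all sgRNAs the signs split 22 to 13 as before and 4 pairs were lower. In lung the nontargeting median moved every change by -1.19 under IgG and -0.82 under anti-PD-1.

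These non-calls have a width. For 14 of the 35 genes the 95% interval of the mean change lay above -1, which is a halving of the signal, and for 24 it lay below 1, a doubling. The fit used 1 spread per gene for all groups outside the lymph nodes, so a group's own spread did not set its standard error. In a single group the standard error of a change was 0.49 to 0.88 where the group had 3 libraries. It was 0.69 to 1.24 in liver anti-PD-1 with 1 library, whose spread came from the other groups alone. Tumour and lung thus had the same standard errors, although the nontargeting SD was 1.43 to 1.65 in tumour and 2.62 to 3.68 in lung. By this shared spread, a halving or a doubling in a single group was at or within the error for these genes. Changes in tumour were not tested against the spread of the tumour libraries alone here.

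The carnitine shuttle had 7 genes, 4 with a mean change below 0 and 3 above, and none was called in any of the 10 groups. Cpt1a (ENSMUSG00000024900, chromosome 19, 3322334 to 3385733), which makes the carnitine ester at the outer mitochondrial membrane, had levels of 0.64, 0.15 and 0.46 in T0. In tumour its levels were 0.20, -0.09 and 2.06 under IgG and 0.47, 0.12 and -0.35 under anti-PD-1. The third IgG library stood apart, and the other 5 tumour libraries lay within or below the range of T0. One sgRNA, s_00761, had a signal of 63646 in that library, against 607 to 1973 in T0 and a median of 844 over the 26 libraries outside the lymph nodes. The same sgRNA reached 12561 in lung IgG replicate 2 and 24425 and 29787 in draining and nondraining lymph node IgG replicate 2. The mean change of Cpt1a was -0.44 (SE 0.51, interval -1.47 to 0.60), which limma did not call. Its sgRNAs were split, with s_00761 at a mean change of 1.27 and s_00762 at -1.70.

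Cpt2 (ENSMUSG00000028607, chromosome 4, 107903981 to 107923610), the inner membrane enzyme that hands the chain back to CoA, had the highest mean change of all 35 genes. Its levels were 1.26, 0.96 and 0.72 in T0. Tumour levels were 1.03, 0.97 and 1.53 under IgG and 0.95, 1.63 and 1.15 under anti-PD-1, within the range of T0 or above it. Lung anti-PD-1 levels were 1.59, 3.18 and 2.08, all above T0, and lung IgG levels were 2.67, 2.26 and -0.73, on both sides of it. The share of all genes with every lung anti-PD-1 library above T0 is not given here. Of the 26 libraries, 17 lay above every T0 library and 1 below, and 9.38% of all genes had at least 17 above. The mean change was 0.53 (SE 0.49, interval -0.46 to 1.52, adjusted p = 0.922), and all 5 sgRNAs had a mean change above 0, from 0.15 to 1.07, whereas with values as deposited the mean change of Cpt2 was -0.47. Cpt1c, the form found mostly in brain, was the lowest of the shuttle at -0.48 (interval -1.59 to 0.63), and the carnitine-acylcarnitine carrier Slc25a20 was at -0.31 (interval -1.25 to 0.64).

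Among the 9 acyl-CoA dehydrogenases, Acad9 stood below all others. Acad9 (ENSMUSG00000027710, chromosome 3, 36065979 to 36092853) oxidises long chains and is also known as an assembly factor of respiratory complex I. Its levels in T0 were 0.37, 0.51 and 0.36. In tumour they were -0.96, -1.39 and -1.22 under IgG and -1.49, -2.28 and -2.11 under anti-PD-1. Every tumour library lay below every T0 library, as for 21.2% of all genes, and the anti-PD-1 libraries lay below the IgG libraries, as for 5.34%. In peritoneal metastases the levels were -0.63 and -1.88 under IgG and -2.28, -5.06 and -1.56 under anti-PD-1. Liver libraries had -1.92 and -0.42 under IgG and -1.83 under anti-PD-1. In spleen the levels were -2.92, -0.21 and 0.19 under IgG and -1.95, -2.40 and -0.82 under anti-PD-1, with all 6 below T0. For 26.7% of all genes the 3 anti-PD-1 libraries were below T0, and the share with all 6 below is not given here. Lung was mixed, with -1.76, 1.41 and 0.75 under IgG and -0.33, -4.24 and -1.84 under anti-PD-1. Lung IgG replicates 2 and 3 were the only 2 of 26 libraries above T0, and the other 24 lay below it, a count that 16.9% of all genes reached or passed.

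The mean change of Acad9 was -1.92 (SE 0.66, interval -3.26 to -0.58, adjusted p = 0.0396). In peritoneal metastases under anti-PD-1 the change was -3.38 (SE 0.88, adjusted p = 0.00406), and in lung under anti-PD-1 it was -2.55 (SE 0.88, adjusted p = 0.0375). In both groups all 3 libraries lay below every T0 library, as they did for 27.1% and 25.9% of all genes. In tumour under anti-PD-1, where 28.5% of all genes had every library below T0, Acad9 changed by -2.37 (adjusted p = 0.0723) and by -1.61 under IgG (adjusted p = 0.442). The tumour anti-PD-1 value was called without lung IgG replicate 1 (adjusted p = 0.0491), lung anti-PD-1 replicate 2 (0.0403), peritoneal anti-PD-1 replicate 2 (0.0442) or spleen IgG replicate 1 (0.0496). The spleen values were -2.14 under anti-PD-1 and -1.39 under IgG (adjusted p = 0.125 and 0.579), the liver values in the same order -2.24 and -1.59 (0.459 and 0.534) and the peritoneal and lung IgG values -1.67 and -0.28 (0.477 and 0.889). The peritoneal call rested on replicate 2, whose labels conflict: without it the change was -2.34 (adjusted p = 0.103), and the mean change over groups was then -1.82 (adjusted p = 0.0355). The lung call was lost without lung anti-PD-1 replicate 2 (-1.50, adjusted p = 0.317), lung anti-PD-1 replicate 3 (-2.70, adjusted p = 0.0552) or T0 replicate 1, 2 or 3 (adjusted p = 0.0845, 0.0998 and 0.0882). The mean call was lost without T0 replicate 1, 2 or 3 (adjusted p = 0.134, 0.163 and 0.137), liver IgG replicate 2 (0.0583), peritoneal IgG replicate 3 (0.0564) or spleen anti-PD-1 replicate 2 (0.0511), with the change between -1.95 and -1.85 in these 6 fits. With 1 variance per organ, a setting chosen after seeing the data, the mean change had an adjusted p of 1.14e-07 and the lung change one of 0.0398.

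All 5 Acad9 sgRNAs had a negative mean change. Below the 5th percentile of the nontargeting sgRNAs (-1.29) were s_08746 at -2.22, s_08747 at -2.49 and s_08750 at -2.72, and above it were s_08748 at -1.15 and s_08749 at -1.04. The signal of s_08746 was 248 to 458 in T0 and had a median of 50.9 (0 to 239) over the 26 libraries. For s_08750 the signal was 231 to 319 in T0 and had a median of 37.6 (0 to 557), with 8 of 26 libraries at the lowest value. When a gene was summarised by the median of its sgRNAs, the Acad9 calls were lost, with changes of -1.59 in the mean, -1.89 in lung and -3.08 in peritoneal metastases (adjusted p = 0.659, 0.426 and 0.308). The mean call was also lost with the median of all sgRNAs for centring (-1.95, adjusted p = 0.0654). Shared lowest values set to 0 (0.0623), all 41 libraries in 1 fit (0.0649) and leaving out the peritoneal libraries (0.0568) lost it as well. The lung call was lost with shared lowest values set to 0 (adjusted p = 0.0502), all 41 libraries in 1 fit (0.0666) and only the groups compared (0.112).

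Complex I genes are set beside this value for scale only. Whether the change of Acad9 has to do with complex I or with fatty acid oxidation was not tested. The library had 38 genes with a symbol starting with Nduf, a prefix used mostly, but not only, for complex I subunits and assembly factors. Of these, 30 were lower in the mean contrast, and the median change of the 38 was -2.58. For the 34 fatty acid oxidation genes other than Acad9, the 95% interval of the mean change lay above that median. The share of all 2078 genes with such an interval is not given here. Their median mean change was -0.14, so the count is not particular to the pathway. Acadvl, the very-long-chain dehydrogenase closest to Acad9 in sequence, had a mean change of -0.21 (interval -1.18 to 0.76). The medium-chain enzyme Acadm was at -0.02 (interval -1.23 to 1.20), the long-chain enzyme Acadl at -0.09 (interval -1.07 to 0.89) and the short-chain enzyme Acads at 0.28 (interval -0.61 to 1.17). Acad11 was the highest of the class at 0.30 (interval -0.55 to 1.14), with levels of 0.46, 0.55 and 0.66 in T0 and 15 of 26 libraries above these, a count that 18.1% of all genes reached.

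The 5 genes of the inner steps of the cycle had 4 mean changes below 0. Hadha (ENSMUSG00000025745, chromosome 5, 30118304 to 30155162), the hydratase and dehydrogenase subunit of the trifunctional protein, was the lowest at -0.71 (SE 0.55, interval -1.82 to 0.41, adjusted p = 0.819). Its T0 levels were 0.25, 0.14 and 0.44. Liver IgG levels were -1.14 and -1.86 and spleen IgG levels -2.09, 0.41 and -0.97, whereas the lung libraries ran from -2.78 to 2.44. Liver IgG lay below T0 in both libraries, as for 37.2% of all genes, with a change of -1.78 that was not called (adjusted p = 0.222). The other trifunctional subunit, Hadhb, was at -0.32 (interval -1.25 to 0.61) and the short-chain hydratase Echs1 at -0.60 (interval -1.56 to 0.36). Acaa2, the mitochondrial 3-ketoacyl-CoA thiolase, was the highest at 0.13 (interval -0.73 to 0.995).

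Among the isomerases needed for unsaturated chains, Eci2 (ENSMUSG00000021417, chromosome 13, 34977748 to 35027096) supplied the remaining call. Eci2 had levels of -0.22, -0.14 and -0.07 in T0 and of -2.97 in the single liver anti-PD-1 library, with -0.99 and 0.09 under IgG. The change was -2.82 (SE 0.94, adjusted p = 0.0495). The sgRNAs s_03804 and s_03805 had a signal of 0 in that library, and s_03801 had one of 9.65 against 136 to 189 in T0. The call sat at the threshold: it was lost on leaving out any T0 library or any of 15 other libraries, with adjusted p up to 0.109. It was also lost in 8 of the other settings, among them log2(signal + 10) (-1.57, adjusted p = 0.152), leaving out the 10% of sgRNAs lowest in T0 (-2.11, adjusted p = 0.257) and all 41 libraries in 1 fit (adjusted p = 0.228). The difference from liver IgG was -2.52 (interval -4.54 to -0.50, adjusted p = 0.976). Over 10 groups Eci2 was at -0.59 (interval -1.60 to 0.42), and Eci1 and Ech1 were at 0.25 and 0.26. Ech1 lay above every T0 library in 20 of 26 libraries (T0 0.30, 0.28 and 0.20) at a small size, its interval running from -0.64 to 1.16, and 2.79% of all genes had at least 20 above.

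The electron transfer flavoprotein genes all had mean changes below 0. Etfa was at -0.60 (interval -1.55 to 0.35), Etfb at -0.47 (interval -1.56 to 0.62) and Etfdh, which passes the electrons on to ubiquinone, at -0.44 (interval -1.52 to 0.64). Etfa lay below every T0 library (-0.41, -0.22 and -0.26) in 22 of 26 libraries and above in 4, and 19.2% of all genes had at least 22 below. Its lowest level was -3.10 in spleen IgG replicate 3, and in tumour it had -0.69, -0.81 and 0.35 under IgG and -1.05, -0.46 and -1.06 under anti-PD-1. No change of Etfa was called, and the lowest outside the lymph nodes was -1.55 in lung under anti-PD-1 (adjusted p = 0.0868). With 1 variance per organ the mean changes of Hadha (adjusted p = 0.0101), Echs1 (0.0147), Etfa (0.0247) and Eci2 (0.0316) were called lower and that of Cpt2 (0.0387) higher at the same sizes. This setting was chosen after seeing the data, and the share of all genes called under it is not given here.

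Peroxisomal oxidation had 8 genes, 5 of them with a mean change above 0, and none was called outside the lymph nodes. The acyl-CoA oxidases Acox2 and Acox3 were at 0.15 and 0.16, the bifunctional enzymes Ehhadh and Hsd17b4 at 0.12 and 0.19, and the thiolases Acaa1a and Acaa1b at -0.01 and 0.19. The intervals of these 6 genes ran from -0.88 at the lowest to 1.20 at the highest. In lung under IgG, Ehhadh was at 1.57 (adjusted p = 0.0639), which became a call without lung IgG replicate 3 (2.17, adjusted p = 0.00787), lung anti-PD-1 replicate 1 (adjusted p = 0.0334) or lung anti-PD-1 replicate 3 (adjusted p = 0.0446). Acox2 was at 1.18 there (adjusted p = 0.106) and became a call without lung IgG replicate 1 (1.58, adjusted p = 0.0259).

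Phyh, which starts the alpha-oxidation of phytanic acid, had the lowest mean change of the peroxisomal genes at -0.39 (SE 0.47, interval -1.35 to 0.56), which was not called. Its levels were -0.41, -0.52 and -0.35 in T0. In tumour they were -0.57, -0.17 and -0.73 under IgG and -0.87, -0.16 and -0.93 under anti-PD-1. Tumour libraries lay on both sides of T0. Liver libraries lay below it, as for 25.3% of all genes, with -1.43 and -1.59 under IgG and -1.96 under anti-PD-1, changes of -1.09 and -1.53 (adjusted p = 0.563 and 0.496). Lung levels were -3.27, -1.51 and 0.26 under IgG and -0.08, -0.35 and 0.09 under anti-PD-1. The lung difference between treatments was 1.39 (interval 0.12 to 2.65, adjusted p = 0.191) and was called without lung IgG replicate 3 (2.27, adjusted p = 0.0192), as was then the change in lung IgG against T0 (-1.96, adjusted p = 0.0154).

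At the level of single sgRNAs, 154 of the 175 had a mean change within the 5th to 95th percentile of the nontargeting sgRNAs (lower bound -1.29). Below it were 15 sgRNAs or 8.57%, against 19.6% of all targeting sgRNAs, and above it were 6 or 3.43%, against 3.85%. The 15 belonged to 11 genes. Of the 35 genes, 24 had no sgRNA below, 8 had 1, 2 had 2 and Acad9 had 3. No gene of the pathway had 4 or more, whereas 302 library genes or 14.5% did. Sister sgRNAs differed in several genes. Carnitine acetyltransferase (Crat) had the lowest sgRNA outside Acad9, s_00779 at -2.45, whose signal fell from 2099 to 3809 in T0 to a median of 262 (54.9 to 823). Its sister s_00776 was at 1.26, and the gene's mean change was -0.32 (interval -1.25 to 0.60). In Hadha the sgRNA s_07153 was at -2.13 and s_07155 at 0.29.

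The screen was run under both treatments to compare anti-PD-1 with IgG within an organ. No fatty acid oxidation gene was called in any of the 7 organs or in the mean over the 5 organs outside the lymph nodes by limma. Among all pairs of gene and organ 0.337% were lower and 0.172% higher under anti-PD-1, all of them in lung, and in the mean 0.481% of genes were lower and 0.866% higher. Within lung alone 2.36% of all genes were lower and 1.2% higher. At an unadjusted p under 0.05, 2 genes of the pathway were lower in the mean, Acad9 and Acad10, and none was higher. Of all 2078 genes, 141 were lower and 188 higher in the mean at that p. Acad9 was lower under anti-PD-1 in all 5 organs, as were 6.69% of all genes. Its differences were -0.77 in tumour, -2.27 in lung, -0.66 in liver, -1.72 in peritoneal metastases and -0.75 in spleen. The mean difference was -1.23 (interval -2.14 to -0.32, adjusted p = 0.160), and it was -1.02 without peritoneal anti-PD-1 replicate 2 (adjusted p = 0.234). The lung difference alone had an adjusted p of 0.134 and was called without lung anti-PD-1 replicate 1 (-3.17, adjusted p = 0.0372). Acad10, a little-studied family member, was at -0.61 in the mean (adjusted p = 0.256) and at -1.43 in lung (adjusted p = 0.113), where it was called without lung IgG replicate 3 (-1.76, adjusted p = 0.0480) or lung anti-PD-1 replicate 2 (-1.88, adjusted p = 0.0485). The mean difference was -0.26 for Cpt1a and 0.32 for Cpt2. For Cpt1a the lung difference was 1.43 (adjusted p = 0.216), called without lung IgG replicate 3 (2.25, adjusted p = 0.0409), as was then the change in lung IgG against T0 (-1.89, adjusted p = 0.0470).

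Differences between the 5 organs were tested by a moderated F-test, which called none of the 35 genes and 0.433% of all genes. At an unadjusted p under 0.05 it picked 162 of all 2078 genes. The 3 of the pathway were Ech1, Etfdh and Ehhadh (adjusted p = 0.406, 0.480 and 0.636). The change of Etfdh was -1.25 under IgG and -2.33 under anti-PD-1 in liver, and 0.65 and 0.66 in peritoneal metastases, none of which was called. Its 2 liver IgG libraries lay below and its 2 peritoneal IgG libraries above every T0 library, as for 1.88% of all genes. This pair of groups was picked by a search over many pairs, which that share does not take into account. Several lung values became calls on leaving out a single lung library: Ech1 under IgG without IgG replicate 3 (1.89, adjusted p = 0.0216), Etfb under IgG without IgG replicate 2 (-2.58, adjusted p = 0.00379), and Echs1 (-1.85, adjusted p = 0.0402) and Etfdh (-2.19, adjusted p = 0.0247) under anti-PD-1 without anti-PD-1 replicate 3. In that last fit Etfdh also differed between treatments (-2.54, adjusted p = 0.0394).

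In lymph nodes no gene of the pathway and no gene of the library (0.0%) was called against T0 by limma, with 40.6 to 92.0% of the 175 sgRNAs at their lowest value. At an unadjusted p under 0.05 there were 2 pairs of the pathway, Cpt2 in draining nodes under IgG at 2.56 and Phyh in draining nodes under anti-PD-1 at 2.61 (adjusted p = 0.368 and 0.302). At that p 41 to 56 of all 2078 genes were higher in a lymph node group and 83 to 178 lower. The levels of Phyh did not overlap between treatments in either node. In draining nodes its levels were -0.24, -1.94 and -3.50 under IgG and 2.74, 1.89 and 1.92 under anti-PD-1. In nondraining nodes they were -1.50, -1.42 and -2.38 under IgG and 1.82, 0.79 and 1.68 under anti-PD-1. Every anti-PD-1 library lay above every IgG library in each node, which was the case for 6.93% of all genes in draining nodes, 8.23% in nondraining nodes and 0.77% in both, and Phyh was the only gene of the pathway among the last. The study took Phyh forward from this screen, so that its position is not independent of these libraries.

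The difference of Phyh between treatments was 4.08 in draining nodes (SE 0.93, interval 2.17 to 5.99, adjusted p = 0.0573) and 3.20 in nondraining nodes (SE 0.93, interval 1.29 to 5.11, adjusted p = 0.234). The draining value was called without draining IgG replicate 1 (4.90, adjusted p = 0.0234) or nondraining IgG replicate 1 (adjusted p = 0.0451). With all 41 libraries in 1 fit both values were called (adjusted p = 0.000768 and 0.0120). That fit pools lymph nodes with less variable libraries and can understate the lymph node spread. The typical variance of a gene estimated by limma was 1.64 in the lymph node fit and 0.590 in the other. The share of all genes called with all 41 libraries is not given here. Few sgRNAs carried it. Under anti-PD-1, 3, 2 and 4 of the 5 Phyh sgRNAs were above their lowest value in the draining libraries and 1, 1 and 3 in the nondraining ones. Under IgG the numbers were 1, 0 and 0 in draining nodes and 0 in all 3 nondraining libraries. The sgRNA s_02096 had signals of 3086, 1079 and 2049 in draining nodes under anti-PD-1 and of 1.39, 0.344 and 0 under IgG. In nondraining anti-PD-1 replicate 1, s_02099 alone had a signal of 7271 and the other 4 were at their lowest value. Acox3 followed in draining nodes with a difference of 3.30 (adjusted p = 0.181), called without draining anti-PD-1 replicate 1 (4.61, adjusted p = 0.0386), and Ehhadh in nondraining nodes with 3.38 (adjusted p = 0.241).

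Of 39 further genes of fatty acid activation, malonyl-CoA control, peroxisomal import, ketone bodies and propionyl-CoA use, 33 were in the library. In the mean of 10 groups 1 was lower and none higher, with a median change of -0.03. Acaca, which makes malonyl-CoA for fatty acid synthesis, was at -1.61 (SE 0.49, adjusted p = 0.0154). It was lower in tumour under IgG (-2.31, adjusted p = 0.00930) and under anti-PD-1 (-2.02, adjusted p = 0.0281). Acacb, the other acetyl-CoA carboxylase gene of the list, was at 0.16 in the mean and was not called. The mean call of Acaca was lost without T0 replicate 1, 2 or 3 (adjusted p = 0.0847, 0.0942 and 0.0562). The tumour IgG call was lost without its replicate 3 (adjusted p = 0.0670), and the anti-PD-1 call without its replicate 1 or 3 (0.0905 and 0.136) or T0 replicate 1, 2 or 3 (0.0828, 0.0913 and 0.0610). All 3 calls of Acaca were lost with the median of the sgRNAs (adjusted p of 0.258 to 0.566) and with all 41 libraries in 1 fit (0.125 to 0.243), the tumour calls with the median of all sgRNAs for centring (0.0662 under IgG and 0.149 under anti-PD-1) and the tumour anti-PD-1 call with the nontargeting median (0.0592). The acyl-CoA synthetase Acsl5 was higher in lung under IgG (2.28, adjusted p = 0.00299), and its size was 1.10 (adjusted p = 0.153) with the nontargeting median and 0.35 (adjusted p = 0.648) without centring. Pcca, a propionyl-CoA carboxylase subunit, was lower in lung under anti-PD-1 against T0 (-1.76, adjusted p = 0.0308) and against IgG (-2.10, adjusted p = 0.0390). With 1 variance per organ these values of Pcca were not called (adjusted p = 0.0525 and 0.769). Both calls were also lost without T0 replicate 1, 2 or 3 (adjusted p of 0.0545 to 0.0982) or lung anti-PD-1 replicate 2 or 3 (0.0528 to 0.0847), and the difference was lost without lung IgG replicate 1 (-1.63, adjusted p = 0.139).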

How the data were processed

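The integrated sgRNA was sequenced from genomic DNA of the sorted cells. The deposited values are a signal per sgRNA and library: the authors counted reads with MAGeCK-VISPR, normalized them to nontargeting sgRNAs and ran ComBat, by their methods against batch effects between organs. Its settings, and which library was in which of 3 sequencing runs, are not given in the sources used here. Libraries of 1 replicate number share their lowest values, so what formed a batch cannot be told from the table, and what ComBat did to changes against T0 and between organs was not tested. Read depth behind a value is unknown, so no counting interval is given. No genome build is named for the screen; positions are from GRCm38 with GENCODE vM21.

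Groups follow the labels. log2(signal + 1) was averaged over 5 sgRNAs per gene and centred on the mean of 250 nontargeting sgRNAs per library. limma 3.58.1 in R 4.3.3 fitted 1 mean per group, in 29 libraries outside the lymph nodes and, apart, in 15 of T0 and lymph nodes. Adjusted p-values are Benjamini-Hochberg over 2078 genes, called at 0.05 or less. The labels do not say how many mice a library holds, and p-values measure only the spread between libraries. In simulated data with known changes the fit called some unchanged genes in the lung comparisons and none in the others. The simulation drew independent noise for each sgRNA and held neither shared lowest values nor ComBat. It therefore cannot show how often unchanged genes are called in the real libraries. The 2 samples without values were left out. Most detail is given on called genes, Cpt1a, Cpt2, Phyh and the highest and lowest gene of each class; others named were chosen after their values were seen. Genes, lists and the division of the fits were chosen with earlier results of these data known. Alternatives were another offset, centring, summary or filter of sgRNAs, other sets of libraries in the fit, a replicate block, each library left out and, chosen after seeing the data, 1 variance per organ or an organ left out. The values of 1 gene are not reported here.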

Additional observations from a re-analysis of the deposited data

Results flagged for a closer look

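The levels of Etfdh lay on opposite sides of T0 in 2 organs under IgG, at changes that were not called. Both liver IgG libraries (-1.54 and -1.20) lay below every T0 library (-0.27, 0.10 and -0.19), and both peritoneal IgG libraries (0.44 and 0.61) lay above, as for 1.88% of all genes. The pair was picked by searching the genes given in most detail over pairs of groups that share an organ or a treatment. The 1.88% holds for this 1 pair only and does not count the other pairs searched. The change in liver minus that in peritoneal metastases was -1.89, and this pair of groups was not tested by itself. The F-test over organs gave an adjusted p of 0.480 for Etfdh.

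The levels of Phyh lay on opposite sides of T0 under the treatments in nondraining lymph nodes, at changes that were not called. All 3 IgG libraries lay below and all 3 anti-PD-1 libraries above every T0 library, and IgG minus anti-PD-1 was -3.20. Every anti-PD-1 library lay above every IgG library for 8.23% of all genes. The share that also had T0 in between is not given here. The test of this difference gave an adjusted p of 0.234. It gave 0.0120 with all 41 libraries in 1 fit, which pools lymph nodes with less variable libraries. This pair of groups was also picked by the search described for Etfdh. In the IgG libraries all 5 Phyh sgRNAs were at their lowest value, a share whose part in the result was not tested.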

How the results depend on the processing

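The count of 3 lower pairs outside the lymph nodes became 0 with the median of the sgRNAs (and 4 higher), 15 with the nontargeting median for centring, 53 with values as deposited, 1 with shared lowest values set to 0, 1 with all 41 libraries in 1 fit and 17 with only the groups compared (and 9 higher). Leaving out 1 library gave 1 to 5 lower and 0 to 2 higher pairs. In the lymph nodes, values as deposited gave 139 lower pairs and only the groups compared gave 1, and leaving out 1 library gave 0 in both directions. The 1 lower gene in the mean contrast became 0 with the median of the sgRNAs, the median of all sgRNAs for centring, shared lowest values set to 0 and all 41 libraries, and 10 with values as deposited, and it was 0 to 1 on leaving out 1 library, with 0 higher. Calls between treatments were 2 lower and 6 higher with all 41 libraries, and 0 to 1 lower and 0 to 2 higher on leaving out 1 library. The F-test called 6 genes with values as deposited and 0 on leaving out 1 library. The causes were not tested. Another centring moves every gene of a library alike. Shares of all library genes called under these settings are not given here, so these counts say nothing particular to the pathway. Without liver anti-PD-1 replicate 3 the mean over 10 groups has no value.

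With the replicate number as a block the counts were the same, 3 lower pairs and 1 lower gene, and the mean change of Acad9 was -1.98 (adjusted p = 0.0294). Same-numbered libraries correlated in their deviations at a median r of -0.048 over genes (-0.356 to 0.269), 15.7% of these pairs were over 0.1 (8.10% for different numbers) and 57 of 248 best matches were to the own number. The values had been batch corrected before, and the deviations were from means of few libraries. These correlations therefore cannot decide whether same-numbered libraries are pairs. The fit did not treat the numbers as pairs. Whether they carry a batch was not tested.

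Chosen after seeing the data, all 41 libraries with the nontargeting median gave 34 higher pairs in lymph nodes, 0 lower genes in the mean and 1 higher call between treatments. With 1 variance per organ 12 pairs were lower, and 5 genes were lower and 1 higher in the mean. Leaving out lung gave 5 lower pairs, and leaving out the peritoneal libraries gave 0 lower genes in the mean. Shares of all genes called in these fits are not given here.

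Signs turned for genes near 0 in the mean contrast. With the nontargeting median, in both forms of the fit, Acad11 was at -0.11, Acaa2 at -0.28, Ech1 at -0.15 and Acaa1b at -0.22. With values as deposited Acad11 was at -0.70, Cpt2 at -0.47, Acaa2 at -0.87, Ech1 at -0.74 and Acaa1b at -0.81. With the median of the sgRNAs Eci2 was at 0.0424. Values as deposited keep each library's nontargeting level, and centring removes it. Read depth is unknown, and its part was not tested.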
